A study of Homo sapiens with 4 samples.

Results

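The genes described here sense DNA damage or repair it. They are 47 genes chosen by symbol from a table of 61806 genes. No measured value served as a rule for the choice, but earlier results of these data were known when it was made. RNA from detached cells of a human chondrosarcoma line (JJ012) and a human osteosarcoma line (143B) was sequenced after poly(A) selection. Each line gave 1 library from cells left untreated and 1 library from cells given melatonin at 1 mM for 72 h, 4 libraries in all. Every library, the controls included, came from cells kept in suspension, and no vehicle for the controls is given in the sources used here. Since each condition had 1 library, how much cultures of the same condition vary is unknown here.

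The libraries held between 15889564 and 19218343 counts, of which the 47 genes took between 0.209% and 0.270%. Of 9 chondrocyte markers, 2 reached 1 FPKM in the JJ012 libraries, namely SOX9 and COL11A1, while COL2A1 and ACAN had at most 0.11 FPKM in any library. The osteoblast markers RUNX2 and BGLAP reached 1 FPKM in both 143B libraries, but the summed level of the 9 osteoblast markers went against the line labels, at 109.16 FPKM in the JJ012 control and 8.52 FPKM in the 143B control. SPP1 made up most of it, with 79.39 FPKM in the JJ012 control and 0.40 FPKM in the 143B control. Of 8 blood and endothelial markers, at most 2 reached 1 FPKM in any library, and their summed level was between 2.09 and 13.05 FPKM. In bulk RNA, fewer cells of a type and less RNA per cell cannot be told apart.

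Cells meet DNA breaks, crosslinks and damaged bases with separate repair routes. Homologous recombination copies the intact sister chromatid and works mainly while DNA is being replicated, whereas end joining rejoins broken ends at any stage of the cell cycle. The Fanconi anaemia proteins unhook crosslinked strands, mismatch repair corrects replication errors, and base and nucleotide excision repair replace damaged bases or short stretches of a strand. The kinases ATM, ATR and DNA-PKcs, the last encoded by PRKDC, respond to lesions, and ATM and ATR signal to the checkpoint kinases CHEK1 and CHEK2. Mutant or silenced repair genes are known in many tumours.

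Levels are given as FPKM, which scales counts to exonic length and library total, so that genes can be compared per length. For the log2 fold change, 1 FPKM was added to both levels before the melatonin library was divided by its control, and a gene entered only if either library of the pair held 1 FPKM or more of it. A gene was past the fold at an absolute log2 fold change of 0.58 or more. The added 1 FPKM makes changes of weakly expressed genes look smaller, so the log2 ratio of CPM (counts scaled to library total alone) was also taken for genes with at least 10 counts in the 2 libraries together. Its exact (Clopper-Pearson) 95% interval comes from the counts of 1 library per condition, so it covers counting error only and not the spread between cultures. Copies made by PCR are not independent molecules, which can make the interval too narrow even for counting error. An interval clear of 0 therefore says at most that these libraries differ, not that the treatment changed the gene.

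The repair genes spanned a wide range of levels in every library. XRCC6 and XRCC5, which encode the Ku heterodimer that binds broken ends, and APEX1, the endonuclease that cuts abasic sites, were the most abundant. XRCC6 had 94.57 FPKM in the JJ012 control and 54.88 FPKM in the 143B control, and APEX1 had 49.72 and 81.12 FPKM. At the other end, MGMT, which removes alkyl groups from guanine directly, had 3 counts in each JJ012 library and 0 counts in each 143B library. A count of 0 allows up to 3 counts, which is 0.189 CPM in the 143B control and 0.175 CPM in the melatonin library. MGMT was thus at or below this floor in all 4 libraries and was not compared. Median levels over the 47 genes were 2.26 FPKM in the JJ012 control and 2.74 FPKM in the 143B control.

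The classes differed in level. Among the 9 core genes of homologous recombination, the median was 0.98 FPKM in the JJ012 control and 0.56 FPKM in the 143B control, with BRCA2, a mediator of strand exchange, lowest at a mean of 0.31 FPKM over the libraries and RAD52 highest at 3.20 FPKM. The 4 Fanconi genes had medians of 0.435 and 1.16 FPKM, from FANCM at a mean of 0.245 FPKM to FANCI at 1.97 FPKM. In end joining the medians were 9.41 and 9.72 FPKM, and the mean level ran from 4.70 FPKM for LIG4, the ligase of this route, to 68.1 FPKM for XRCC6. The excision classes had medians between these and end joining in both controls, with means from 1.34 FPKM (LIG3) to 69.9 FPKM (APEX1) in base excision repair and from 1.22 FPKM (ERCC4) to 9.39 FPKM (ERCC1) in nucleotide excision repair. TP53BP1, a chromatin reader that protects broken ends, was the most abundant damage signalling gene at a mean of 6.90 FPKM, and ATRIP, the partner of ATR, the least at 1.66 FPKM.

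**Figure D1:**
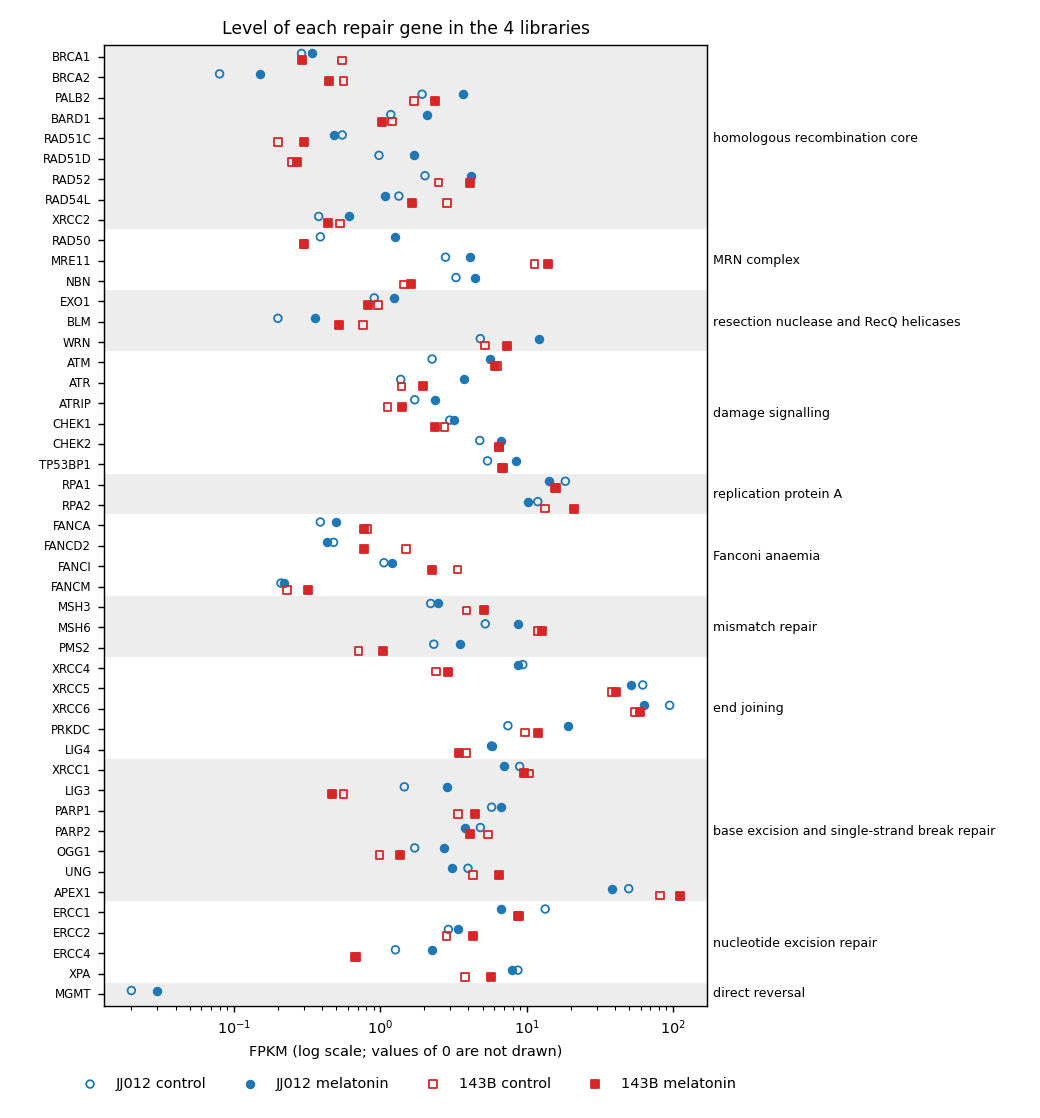
FPKM of the 47 repair genes (log axis) in the control (open) and melatonin (filled) libraries of JJ012 (circles) and 143B (squares), by repair class. XRCC5, XRCC6 and APEX1 lie at 37.93 FPKM or more in all 4 libraries, and MGMT is near 0 in JJ012 and at 0, not drawn, in 143B.

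Exons shared with other genes limit some of these levels. By the GENCODE 29 annotation, 29 of the 47 genes share exonic bases with another gene, and 9 share at least 20% of them with a single gene. RAD50 shares 79.7% with a longer gene on its own strand that had at most 2 counts in any library, so reads of RAD50 could have been left unassigned and its level is uncertain. ERCC1, LIG3, TP53BP1, RAD54L, OGG1, ERCC4 and FANCA share between 23.6% and 29.1% with a gene on the other strand. ATRIP shares 27.9% with TREX1 on its own strand, and TREX1 had 0 counts in every library. PMS2, with 11 pseudogenes named after it, and XRCC6, with 5, could have lost reads to near-identical copies. Whether the counting used strand is not given in the sources used here.

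In JJ012, PALB2, RAD52, RAD50, WRN, ATM, ATR, MSH6, PRKDC and LIG3 were past the fold upward after melatonin, and ERCC1 downward. Of the 38 repair genes that passed the filter, 9 were past the fold upward (23.7%), where 19.6% of all 15794 tested genes and 17.8% of the protein-coding ones were. The upward share is near the background and is no result about repair genes. Downward, 1 gene was past the fold (2.63%), against 18.6% of all tested genes and 16.1% of the protein-coding ones. The median log2 fold change of the 38 genes was 0.27, and that of all tested genes was 0.01. By counting intervals, 24 of the 46 genes with enough counts were above 0 (52.2%) and 9 below (19.6%), where 29.4% and 34.4% of all 21938 genes with enough counts were, and 34.7% and 37.3% of the protein-coding ones. The 9 genes that did not pass the filter were BRCA1, BRCA2, RAD51C, XRCC2, BLM, FANCA, FANCD2, FANCM and MGMT. Rescaling each library to TPM moved the median of all tested genes in JJ012 to 0.27, a shift of 0.26, and on that scale the median of the repair genes was 0.62. Cell type markers were lower in the same pair of libraries, with summed levels of 39.74 and 9.98 FPKM for chondrocyte markers, 109.16 and 70.7 FPKM for osteoblast markers and 13.05 and 4.65 FPKM for blood and endothelial markers, and their part in the result was not tested.

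All of the large kinases that sense damage were higher in JJ012 after melatonin. ATM, which responds to broken ends (chromosome 11, 108223044 to 108369102, plus strand, GRCh38), had 2.26 FPKM in the control and 5.61 FPKM with melatonin in JJ012, and 6.24 and 6.05 FPKM in 143B. Its counts in JJ012 were 1701 and 3546, a log2 ratio of CPM of 1.31 (95% interval 1.23 to 1.40). In 143B the interval was -0.11 to 0.02, so that the libraries of that line did not differ beyond counting error. ATR, which responds to single-stranded DNA at stalled forks (chromosome 3, 142449007 to 142578733, minus strand), had 1.38 and 3.73 FPKM in JJ012 and 1.40 and 1.97 FPKM in 143B. The controls of the lines were alike, and the log2 ratio was 1.43 in JJ012 (1.31 to 1.56) and 0.49 in 143B (0.34 to 0.64). PRKDC, the catalytic kinase of end joining (chromosome 8, 47773111 to 47960178, minus strand), had 7.44 and 19.03 FPKM in JJ012 and 9.72 and 11.94 FPKM in 143B. By CPM it was 2.56-fold higher in JJ012 and 1.23-fold higher in 143B, each with an interval above 0.

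The checkpoint kinases below ATM and ATR differed less between the JJ012 libraries. CHEK2 had 4.78 FPKM in the control and 6.63 FPKM with melatonin, a log2 fold change of 0.40. CHEK1 had 2.98 and 3.21 FPKM, and the interval of its log2 ratio, -0.13 to 0.34, included 0. TP53BP1 had 5.4 and 8.51 FPKM, and its log2 fold change of 0.57 lay just under the threshold. In all, 5 of the 6 damage signalling genes had intervals above 0 in JJ012 and 1 of 6, ATR, in 143B. Of all genes with enough counts, 29.4% were above 0 in JJ012 and 24.2% in 143B. Replication protein A, which coats single-stranded DNA and recruits ATRIP, moved the other way in JJ012, with RPA1 at 18.35 and 14.18 FPKM and RPA2 at 11.90 and 10.26 FPKM. RPA2 was 0.06 higher rather than lower on the TPM scale.

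In homologous recombination, 6 of the 9 core genes had intervals above 0 in JJ012 and 0 below. Among all genes with enough counts, 29.4% were above 0 and 34.4% below. Of 17 homologous recombination genes outside the 47, 4 were above 0 and 10 below, so the count holds for the listed genes and not for the route. PALB2, which bridges BRCA1 and BRCA2, had 1.93 FPKM in the control and 3.66 FPKM with melatonin in JJ012, and 1.70 and 2.36 FPKM in 143B. RAD52, a protein that anneals complementary strands, had 2.02 and 4.18 FPKM in JJ012 and 2.50 and 4.11 FPKM in 143B. By CPM, RAD52 was 2.07-fold higher in JJ012 and 1.65-fold higher in 143B, the largest upward difference among the 47 genes in 143B by the log2 ratio of CPM (0.72, interval 0.45 to 0.99). BRCA2 rested on 22 and 36 counts in JJ012, with an interval of 0.16 to 1.80. RAD54L, a motor protein of strand exchange, had 1.34 and 1.08 FPKM in JJ012, with an interval that included 0.

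All 3 MRN genes and the helicases WRN and BLM had intervals above 0 in JJ012, and of these RAD50 and WRN were past the fold. In that line 29.4% of all genes with enough counts were above 0, and 19.6% of all tested genes were past the fold upward. RAD50, the ATPase of MRN, had 0.39 FPKM in the control and 1.26 FPKM with melatonin in JJ012, from 80 and 215 counts, and 0.30 FPKM in both 143B libraries. Its 3.20-fold difference by CPM was the largest upward one among the 47 genes in JJ012, with the uncertainty that its shared exons bring. MRE11, the nuclease of the complex, had 2.79 and 4.08 FPKM in JJ012 and 11.31 and 13.89 FPKM in 143B, while NBN had 3.29 and 4.47 FPKM in JJ012 and 1.45 and 1.63 FPKM in 143B. WRN, the helicase and exonuclease missing in Werner syndrome (chromosome 8, 31033788 to 31176138, plus strand), had 4.82 and 12.07 FPKM in JJ012 and 5.21 and 7.29 FPKM in 143B. The control levels of WRN were close in the lines, and it was 2.50-fold higher in JJ012 and 1.40-fold higher in 143B by CPM.

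**Figure D2:**
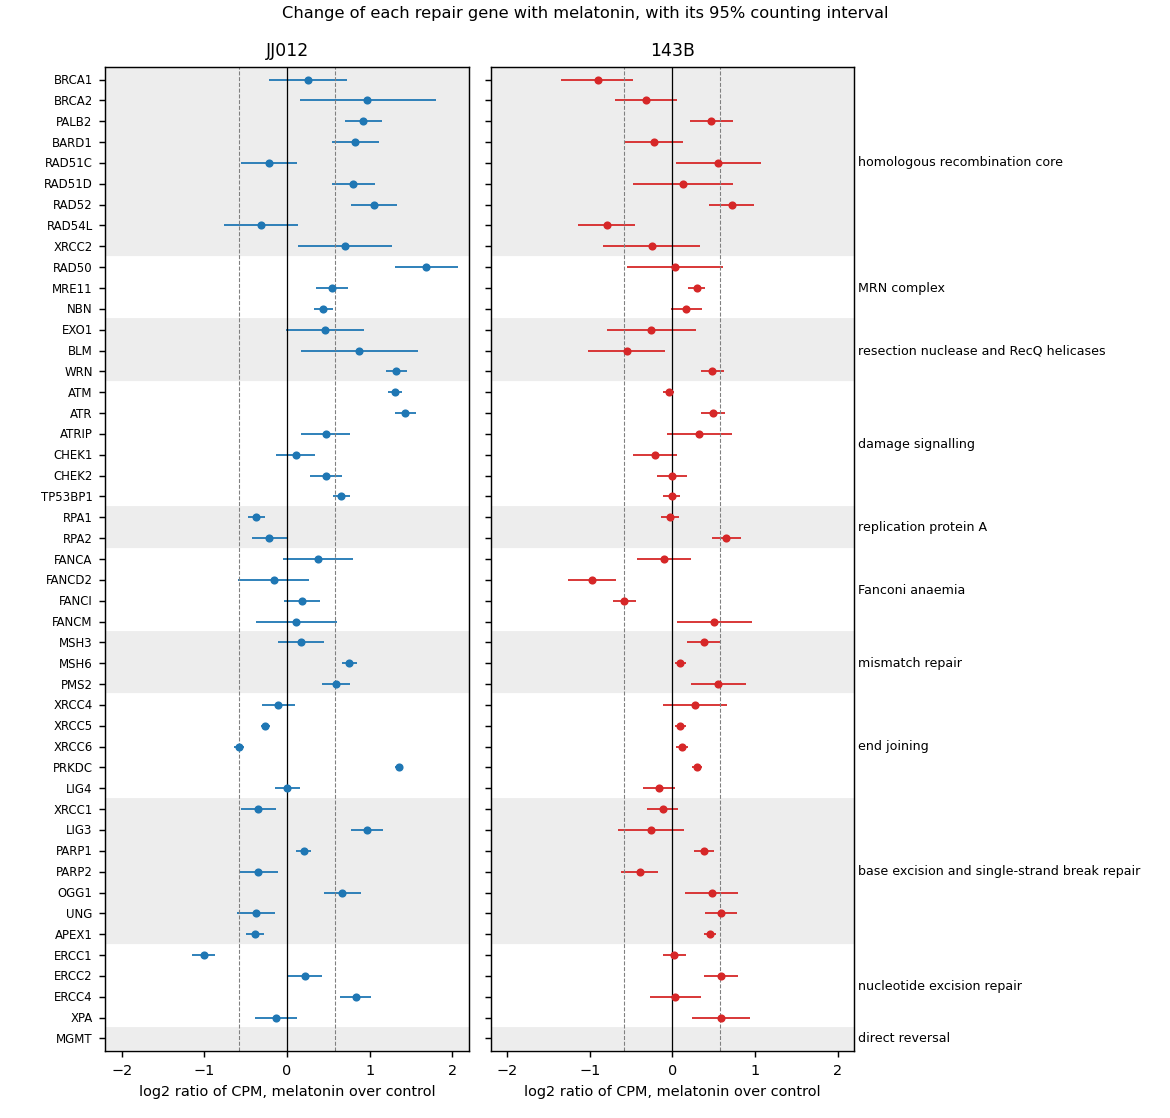
Log2 ratio of CPM, melatonin over control, for the 46 repair genes with at least 10 counts, in JJ012 (left) and 143B (right), with exact 95% intervals for counting error as bars and dashed lines at 0.58 above and below 0. In JJ012, 24 intervals lie above 0 and 9 below, and in 143B 20 lie above and 6 below; MGMT has no point.

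End joining split in JJ012 by subunit. While PRKDC was higher, the Ku subunits were lower, with XRCC6 at 94.57 and 63.09 FPKM and XRCC5 at 61.96 and 51.52 FPKM. The log2 fold change of XRCC6 rounds to -0.58 but stopped just short of the threshold, so that XRCC6 was not counted, and XRCC5 was at 0.01 on the TPM scale. XRCC4 and LIG4, which seal the ends together, had intervals that included 0 in both lines. In 143B both Ku subunits and PRKDC had intervals above 0, with log2 ratios of 0.12 for XRCC6, 0.09 for XRCC5 and 0.30 for PRKDC. The share of all genes with enough counts above 0 in that line was 24.2%.

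In mismatch repair, MSH6, a subunit of the mismatch recognition dimer, had 5.21 FPKM in the control and 8.78 FPKM with melatonin in JJ012, with 11.84 and 12.66 FPKM in 143B. Its log2 fold change in JJ012 was 0.66. PMS2, a subunit of the endonuclease that acts next, had 2.32 and 3.51 FPKM in JJ012 and 0.71 and 1.04 FPKM in 143B. MSH3 had an interval that included 0 in JJ012. In 143B all 3 genes had intervals above 0, with log2 ratios from 0.10 to 0.56, where 24.2% of all genes with enough counts did.

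Base excision repair was divided in JJ012, with 3 of 7 genes above 0 and 4 below. Shares over all genes with enough counts were 29.4% and 34.4%. LIG3, the ligase that seals single-strand breaks with XRCC1, had 1.46 FPKM in the control and 2.85 FPKM with melatonin in JJ012, and 0.56 and 0.47 FPKM in 143B. OGG1, the glycosylase for 8-oxoguanine, had 1.72 and 2.73 FPKM in JJ012, and PARP1, the sensor of strand breaks, had 5.76 and 6.63 FPKM. Lower in JJ012 were XRCC1, at 8.95 and 7.04 FPKM, and PARP2, at 4.83 and 3.80 FPKM. UNG, the glycosylase that removes uracil, had 3.97 and 3.07 FPKM and APEX1 49.72 and 37.93 FPKM. On the TPM scale UNG was at -0.09 and APEX1 at -0.11. The 3 genes above 0 had exonic lengths of 8733 bases or more, and the 4 below 0 had 5271 bases or fewer. After a running median over exonic length was subtracted from the log2 fold changes, LIG3 was at 0.32, OGG1 at 0.20 and PARP1 at -0.20. XRCC1 was then at -0.09, PARP2 at -0.23, UNG at -0.36 and APEX1 at -0.05.

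The largest downward difference among the 47 genes in JJ012 was that of ERCC1, which with ERCC4 forms the nuclease that cuts 5′ of a bulky lesion. ERCC1 (chromosome 19, 45407334 to 45478828, minus strand) had 13.37 FPKM in the control and 6.64 FPKM with melatonin in JJ012, and 8.70 and 8.86 FPKM in 143B. From 1432 and 598 counts, it was 2.01-fold lower by CPM in JJ012, while its interval in 143B included 0. Its partner ERCC4 went the other way in JJ012, at 1.27 and 2.27 FPKM, a log2 ratio of 0.83 (0.64 to 1.02). In 143B, ERCC4 had 0.67 and 0.68 FPKM. Exons shared with a gene on the other strand limit both levels, at 28.6% of ERCC1 and 25.7% of ERCC4. ERCC2, a helicase of TFIIH, and XPA, which verifies the lesion, had log2 fold changes of 0.16 and -0.12 in JJ012.

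Exonic length went with the change in JJ012. Over the 46 genes with enough counts, which share the same pair of libraries, the Spearman correlation of the log2 ratio of CPM with exonic length was 0.56 in JJ012 and -0.09 in 143B. Over all tested protein-coding genes, the correlation of the log2 fold change with length was 0.40 in JJ012 and -0.13 in 143B. The 15 longest repair genes, from 12316 to 39184 bases, had 10 intervals above 0 and 0 below in JJ012, and the 15 shortest, from 1816 to 5463 bases, had 3 above and 7 below. Repair genes were longer than most, with a median of 7572 bases against 5236 for the tested protein-coding genes. After the running median over length was subtracted, 3 genes stayed past the fold upward in JJ012, namely WRN at 0.93, PRKDC at 0.82 and RAD52 at 0.80, and ERCC1 stayed past it downward at -0.996. ATM at 0.57, ATR at 0.56, PALB2 at 0.45, RAD50 at 0.39, LIG3 at 0.32 and MSH6 at 0.30 then lay under the threshold, and the median of the 38 genes was 0.13. On that scale, 18.1% of all tested genes were past the fold upward and 16.4% downward.

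**Figure D3:**
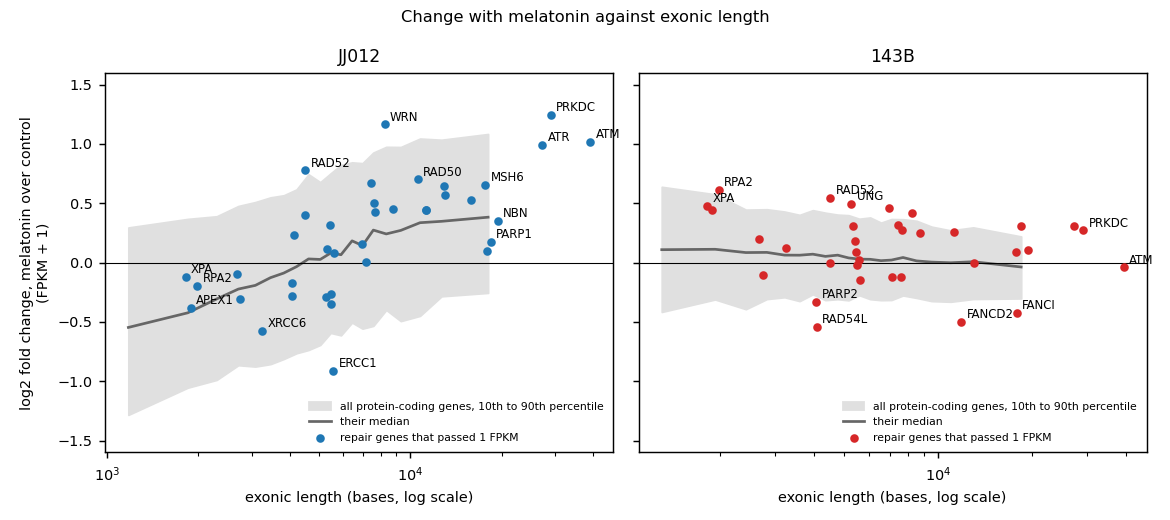
Log2 fold change with melatonin (FPKM + 1) against exonic length (log axis) for the repair genes that passed 1 FPKM in JJ012 (left, 38 genes) and 143B (right, 34 genes); the grey line and band give the median and the 10th to 90th percentile of all tested protein-coding genes in bins of length. In JJ012 the band climbs with length, with WRN and RAD52 above it and ERCC1 below it, while in 143B it is nearly flat. The band is drawn up to the median length of its last bin, 18050 bases in JJ012, and PRKDC, ATR and ATM lie beyond that. The 90th percentile of that bin in JJ012 is 1.08, above ATM (1.02) and ATR (0.99) and below PRKDC (1.25).

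In 143B, RPA2 was the only one of the 47 genes past the fold after melatonin. Of the 34 genes that passed the filter, 1 was past the fold upward (2.94%) and 0 downward, where 6.09% of all 14135 tested genes were past it upward and 6.65% downward, and 3.48% and 2.6% of the protein-coding ones. The median log2 fold change of the 34 genes was 0.15, against 0.03 for all tested genes. RPA2 had 13.34 FPKM in the control and 20.97 FPKM with melatonin, from 420 and 713 counts, a log2 fold change of 0.62 (0.52 with the length trend removed, under the threshold). With that trend removed, 1 gene was past the fold downward, RAD54L at -0.61, and 0 upward, where 5.74% of all tested genes were past it upward and 6.52% downward. By counting intervals, 20 of the 46 genes were above 0 (43.5%) and 6 below (13.04%), where 24.2% and 20.8% of all 19040 genes with enough counts were, and 29.1% and 23.3% of the protein-coding ones.

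The 6 genes below 0 in 143B were BRCA1, RAD54L, BLM, FANCD2, FANCI and PARP2. In the core of homologous recombination 2 genes were below 0 and 3 above, namely PALB2, RAD52 and RAD51C. Shares over all genes with enough counts were 20.8% below and 24.2% above. FANCD2, the Fanconi protein that is ubiquitinated at a crosslink, had 1.5 FPKM in the 143B control and 0.77 FPKM with melatonin, and 0.48 and 0.43 FPKM in JJ012. From 283 and 156 counts it was 1.96-fold lower in 143B by CPM, a log2 ratio of -0.97 (-1.26 to -0.68). FANCI, its partner, had 3.36 and 2.25 FPKM in 143B and 1.06 and 1.20 FPKM in JJ012, and its log2 ratio in 143B was -0.58 (-0.72 to -0.44). BRCA1, the ubiquitin ligase that acts in end resection, had 123 and 71 counts in 143B (0.55 and 0.29 FPKM), 1.87-fold lower by CPM, and 78 counts in each JJ012 library. RAD54L had 2.87 and 1.66 FPKM in 143B, 1.73-fold lower by CPM. BLM, the helicase that dissolves crossed strands, had 95 and 70 counts in 143B and 30 and 46 counts in JJ012. PARP2, which acts at strand breaks beside PARP1, had 5.44 and 4.13 FPKM in 143B and was below 0 in JJ012 as well. FANCM, a translocase of the same pathway, had an interval above 0 in 143B (0.06 to 0.97) on 69 and 106 counts, so that the Fanconi genes did not all move one way.

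Several genes of 143B were higher in the excision classes. APEX1 had 81.12 FPKM in the control and 110.96 FPKM with melatonin, UNG had 4.29 and 6.45 FPKM, and XPA had 3.81 and 5.71 FPKM. ERCC2 had 2.84 and 4.28 FPKM, a log2 ratio of 0.59 (0.39 to 0.80). None of these reached the fold with the added 1 FPKM. In base excision repair, 4 of the 7 genes had intervals above 0 in 143B and 1 below. In nucleotide excision repair 2 of 4 were above 0 and 0 below. Over all genes with enough counts in this line, 24.2% were above 0 and 20.8% below, and classes this small describe single genes only.

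The start regions of the genes that were lower in 143B are shown so that the genes below 0 there can be compared, which were grouped by that value alone. Each run holds the 100 bases before an annotated RefSeq start (GRCh38.p14), 5′ to 3′ on the strand of the gene, with capitals at TTCCCGC or its reverse complement GCGGGAA, the core of the motif bound by E2F factors, which drive genes of DNA replication.
BRCA1 (chr17:43125365-43125464, minus strand): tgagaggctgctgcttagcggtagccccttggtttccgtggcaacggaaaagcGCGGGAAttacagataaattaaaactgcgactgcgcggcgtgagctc
RAD54L (chr1:46247588-46247687, plus strand): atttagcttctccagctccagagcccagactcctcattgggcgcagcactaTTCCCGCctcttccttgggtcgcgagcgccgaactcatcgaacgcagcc
BLM (chr15:90717246-90717345, plus strand): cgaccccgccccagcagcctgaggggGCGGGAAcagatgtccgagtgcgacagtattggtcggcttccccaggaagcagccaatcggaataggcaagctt
PARP2 (chr14:20343535-20343634, plus strand): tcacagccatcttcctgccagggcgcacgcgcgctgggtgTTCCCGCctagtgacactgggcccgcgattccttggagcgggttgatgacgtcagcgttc
FANCD2 (chr3:10026337-10026436, plus strand): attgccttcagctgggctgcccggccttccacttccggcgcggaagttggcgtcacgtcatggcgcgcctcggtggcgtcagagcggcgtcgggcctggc
The match began 47 bases before the start in BRCA1, 49 in RAD54L, 74 in BLM and 60 in PARP2, and FANCD2 held none.

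Promoters were at hand for 41 of the 47 genes, and FANCI, NBN, PRKDC, RPA2, WRN and XRCC5 had none. In the 100 bases before any of its starts, 4 of the 5 genes below 0 in 143B held the motif, 2 of the 16 genes above 0, and 1 of the 19 genes whose interval included 0. Among the 41 repair genes with a promoter, 7 held it there (17.1%), and among all 27305 genes with a promoter 2.93% did. The promoters of the repair genes also held more CpG sites, with a median of 22 in 250 bases against 12 over all genes. The motif was chosen after it was known which genes were lower, so these counts are a description, and a match is not evidence of binding. BRCA1 and RAD54L each have 2 annotated starts, and 1 of them held the motif within 100 bases.

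The start region of MGMT is shown because its RNA was near 0 in all libraries. The 100 bases before the start hold 14 CpG sites, set in capitals, and the 250 bases before it hold 36, where the median gene with a promoter had 12. Methylation of this region is known to silence MGMT in tumours, and methylation was not measured here.
MGMT (chr10:129467141-129467240, plus strand): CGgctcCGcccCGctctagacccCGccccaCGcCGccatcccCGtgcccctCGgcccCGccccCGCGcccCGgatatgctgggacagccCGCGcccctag

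Set side by side, the lines showed the same direction for some repair genes and opposite directions for others. Of the 46 genes, 11 had intervals above 0 in both lines, among them PALB2, RAD52, WRN, ATR and PRKDC, and 1, PARP2, had intervals below 0 in both. Another 12 were above 0 in JJ012 with an interval that included 0 in 143B, among them ATM, TP53BP1 and LIG3. RPA2, XRCC5, XRCC6, UNG and APEX1 were below 0 in JJ012 and above 0 in 143B, and BLM was above 0 in JJ012 and below 0 in 143B. With 24 of the 46 genes above 0 in JJ012 and 20 in 143B, many would be above 0 in both lines even without a link between them. Such counts were not taken over all genes, so the pattern is a description and no result about repair genes. The lines were then taken as the 2 units over which a change could repeat, in edgeR's quasi-likelihood test on the counts with the line as a block, which asks for a change of like size in both. No repair gene of the 46 tested passed an adjusted p of 0.05, while 68 of all 19301 tested genes did (0.352%). At an unadjusted p under 0.05 there were 3 repair genes, all higher, and 5.9% of all tested genes. These were ATR (log2 fold change 0.96, adjusted p = 0.57 in edgeR), WRN (0.90, adjusted p = 0.66) and RAD52 (0.88, adjusted p = 0.82), each higher in 2 of 2 lines. DESeq2 called 0 repair genes at an adjusted p of 0.05 and 2 at an unadjusted p under 0.05.

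Between the untreated controls, MRE11, ATM, FANCI and MSH6 were lower in JJ012 and XRCC4 was higher. In all, 8 of the 36 repair genes that passed the filter were higher in JJ012 past the fold and 8 lower (22.2% each), where 41.3% of all 16929 tested genes were higher and 27.4% lower, and 39.6% and 25.1% of the protein-coding ones. These shares lie below the background and are no result about repair genes. On the TPM scale the repair genes split into 5 higher and 13 lower, and with the differences centred on that of the median gene 3 were higher. The median log2 difference of the repair genes was -0.01, against 0.29 for all tested genes, and TPM moved the latter to -0.01 and the former to -0.34. With 1 control per line, a difference between lines cannot be told apart from one between cultures. By the log2 difference of FPKM + 1 among the 36 genes, MRE11 differed most, at 2.79 FPKM in the JJ012 control and 11.31 FPKM in the 143B control, 4.05-fold lower in JJ012 by CPM. Its complex was not lower as a whole, since NBN was higher in JJ012, at 3.29 against 1.45 FPKM. XRCC4, the scaffold of the end joining ligase, had 9.41 FPKM in the JJ012 control and 2.40 FPKM in the 143B control, 3.92-fold higher in JJ012, and 8.75 and 2.90 FPKM with melatonin.

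On the same scale ATM, FANCI and MSH6 came next, all lower in the JJ012 control. ATM had 2.26 FPKM against 6.24 FPKM in 143B, FANCI 1.06 against 3.36 FPKM and MSH6 5.21 against 11.84 FPKM. After melatonin ATM stood at 5.61 FPKM in JJ012 and 6.05 FPKM in 143B. In the Fanconi class, 3 of 4 genes had intervals below 0 in JJ012 against 143B. In end joining 4 of 5 had intervals above 0. Among all genes with enough counts, 51.4% were above 0 and 31.3% below. These counts hold for the listed genes and not for the routes. Of 14 Fanconi genes outside the 47, 6 were above 0 and 4 below. Of 7 end joining genes outside the 47, 1 was above 0 and 3 below. Mismatch repair was mixed, with PMS2 higher in JJ012, at 2.32 against 0.71 FPKM, and MSH3 and MSH6 lower. By CPM, BRCA2 differed most of the 47 genes, at low counts. It had 22 counts in the JJ012 control and 128 in the 143B control, a log2 ratio of CPM of -2.81 (-3.54 to -2.15), and RAD51D, a gene of the same class, had 212 and 45 counts, a log2 ratio of 1.96.

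**Figure D4:**
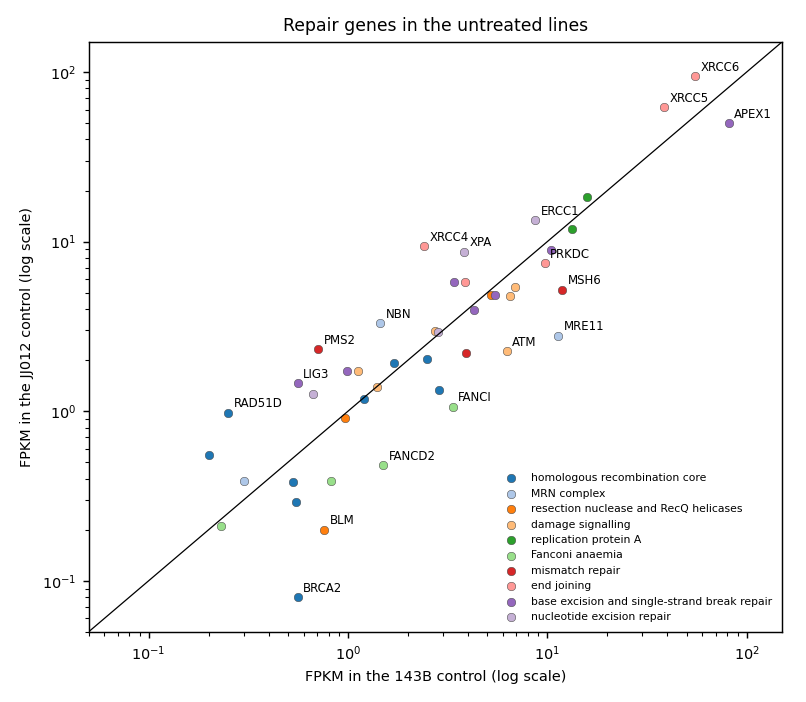
FPKM in the JJ012 control against FPKM in the 143B control (log axes) for 46 repair genes, coloured by class, with the line of equal levels; MGMT is left out because it is at 0 in 143B. XRCC4, XPA and NBN lie above the line and MRE11, ATM, MSH6, FANCI and BRCA2 below it.

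A further 106 repair genes that are not among the 47 were looked at by class. In JJ012, 16 of the 90 that passed the filter were past the fold upward and 9 downward, with a median of 0.12, where 19.6% and 18.6% of all tested genes were. With the length trend removed, these became 10 and 8, with a median of 0.07. In 143B, 5 of 89 were past the fold upward and 1 downward, with a median of 0.09. Of all tested genes in that line, 6.09% and 6.65% were. By counting intervals in JJ012 the classes differed. Homologous recombination had 4 of 17 above 0 and 10 below, base excision 3 of 17 and 8, and nucleotide excision 9 of 20 and 5. Damage signalling had 13 of 22 above and 6 below, and Fanconi anaemia 8 of 14 and 2. Mismatch repair had 4 of 6 and 1, end joining 4 of 7 and 0, and direct reversal 1 of 2 and 1. Upward in JJ012 were WDR48, the cofactor of the deubiquitinase USP1, from 5.81 to 13.88 FPKM, UVSSA, from 4.94 to 13.20 FPKM, MLH3, from 2.58 to 5.08 FPKM, and HUS1, a subunit of the checkpoint clamp, from 3.10 to 8.86 FPKM. Downward were CETN2, a partner of XPC, from 33.20 to 12.93 FPKM, FEN1, the flap endonuclease, from 18.47 to 7.78 FPKM, RECQL4, from 5.03 to 1.82 FPKM, and the histone H2AX, which is phosphorylated at breaks, from 8.24 to 3.93 FPKM. In 143B, PAXX, a partner of Ku, had 3.51 and 6.07 FPKM. Exonic length was 16920 bases for UVSSA and 7473 for WDR48, but 1887 for CETN2 and 1592 for H2AX. A list of 30 DNA replication genes had 5 intervals above 0 (16.7%) and 12 below (40%) in each line, where the shares of all genes with enough counts were 29.4% and 34.4% in JJ012 and 24.2% and 20.8% in 143B, with median log2 ratios of -0.21 in JJ012 and -0.19 in 143B.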

How the data were processed

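RNA of detached JJ012 and 143B cells, control and melatonin (1 mM, 72 h), was measured in 4 libraries. Columns were matched to samples by cell line, and the suffix T was read as melatonin-treated. The authors deposited counts per gene without normalization, and FPKM that equal those counts divided by exonic length and library total to within 0.005. The submitters' processing notes name cutadapt 1.9.1, HISAT2 2.2.1, HTSeq 0.6.1, DESeq2 and hg38. Strand and counting settings are not given in the sources used here. Gene types and exons came from GENCODE 29, in which 71.5% of the 58254 shared genes had the same start and end, and promoters from RefSeq (GRCh38.p14).

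The 47 genes, their classes and the other lists were chosen with earlier results of these data known. All of the 47 may be named. Values in every library are given for genes past the fold, the 5 with the largest difference between untreated lines, the ends of each class and genes on opposite sides of 0 in the lines, and other repair genes by the largest rise and fall at 5 FPKM or more.

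Fold changes needed no model. For a change shared by the lines, counts were fitted in edgeR 4.0.16 (R 4.3.3; filterByExpr, TMM, the line as a block, 1 residual degree of freedom, Benjamini-Hochberg) and DESeq2 1.42.0. Procedures were tested on simulated data with the same changes in both lines and less spread between libraries than edgeR estimated here. That checks the code and not how well the procedures perform on these data. The alternatives tried were adding 0.1 FPKM in place of 1, dropping the filter or raising it to 5 FPKM, TPM, CPM from counts with 0.5 added, centring, removal of a running median over length, and a threshold of 1, and in edgeR library totals and no filter. Protein-coding genes as the background were added after seeing the data. Scripts ran in Python 3.11.15 with pandas 2.3.3, scipy 1.17.1, numpy 2.4.6 and, for plots, matplotlib 3.10.9.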

Additional observations from a re-analysis of the deposited data

Results flagged for a closer look

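For 6 repair genes the log2 ratios of CPM lay on opposite sides of 0 in the lines, with both counting intervals clear of 0. How many of all genes did so was not counted. The difference between the lines was not tested, since each line had 1 library per condition. The difference of the log2 ratios, JJ012 minus 143B, was -0.96 for UNG, -0.87 for RPA2, -0.84 for APEX1, -0.71 for XRCC6, -0.36 for XRCC5 and 1.42 for BLM. The JJ012 side of RPA2 and XRCC5 was above 0 on the TPM scale. Exonic length moved with the change in JJ012 (1981 bases in RPA2, 1886 in APEX1, 3244 in XRCC6, 5271 in UNG, 5463 in XRCC5 and 7876 in BLM). With the length trend removed, the JJ012 log2 fold change of RPA2 turned from -0.20 to 0.15 and that of APEX1 went from -0.38 to -0.05, while UNG at -0.36, XRCC5 at -0.36 and XRCC6 at -0.45 were still below 0. BLM did not pass the filter for this scale. BLM rested on 30 and 46 counts in JJ012.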

How the results depend on the processing

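The counts of repair genes past the fold depended on the scale, and no called gene changed direction under the alternatives run. In JJ012 the 9 genes higher and 1 lower became 14 and 2 with a pseudocount of 0.1 FPKM, 18 and 2 with CPM from the counts, 3 and 0 with a threshold of 1, 20 higher with TPM, 4 higher with a filter of 5 FPKM, 3 higher with the length trend removed and 2 lower with centring. The JJ012 median of 0.27 was -0.0945 with a filter of 5 FPKM, which leaves fewer genes, and 0.62 with TPM. In 143B the 1 gene higher and 0 lower became 2 and 2 with a pseudocount of 0.1 FPKM, 2 and 3 with TPM, 5 and 3 with CPM, 0 and 1 with the length trend removed, and 0 higher with a threshold of 1. Between the controls the 8 higher and 8 lower became 5 and 4 with a filter of 5 FPKM, 5 and 13 with TPM, 2 and 4 with a threshold of 1, 15 higher with CPM and 3 higher with centring, and the median of -0.01 became -0.34 with TPM and -0.30 with centring. The 68 genes with a shared change were 7 in DESeq2. The cause was not tested where the alternative does not itself remove genes. Over single genes, 25 values gained and 13 lost the call in JJ012, 14 and 2 in 143B, and 22 and 22 between the controls. Protein-coding genes alone put 33.9% past the fold in JJ012 and 6.09% in 143B, against 38.2% and 12.7% of all tested genes. Depth limits the genes under 1 FPKM, with counts as low as 22 for BRCA2. No paired analysis was possible because each condition had 1 library and the labels give no replicate numbers to pair by, and the only block was the line, in the shared test.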
